A study of Homo sapiens with 4 samples.

Results

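10 genes of the netrin, slit and Nogo guidance systems were read in SKOV3 cells, an epithelial ovarian cancer line, grown flat or as spheroids. These are the ligands NTN1, NTN4, SLIT2, SLIT3 and RTN4, the receptors UNC5B, ROBO1, RTN4R and RTN4RL2, and the intracellular mediator DPYSL3. The 10 symbols were selected out of 19475 in the expression table with their values in these libraries already known, so what follows for them is a description with no test. For each symbol the RefSeq transcript with the highest mean level was used. One group was 2 libraries of SKOV3 cells on tissue culture plates (TCP), labelled day 0, and the other was 2 libraries of SKOV3 tumor spheroids on plates coated with polymer X, labelled day 8. All 4 libraries came from 1 cell line with no further treatment named. The labels give a serum replacement medium for every library, while the study's methods describe routine culture of SKOV3 in serum. Surface, days in culture and possibly medium therefore changed together and cannot be told apart.

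Netrins, slits and Nogo were first known as cues that steer growing axons. Secreted netrins attract through DCC and neogenin and repel through the UNC5 receptors, and UNC5 receptors can also trigger cell death when no netrin is bound. Slits bind roundabout (ROBO) receptors and usually repel. Nogo, the product of RTN4, shapes the endoplasmic reticulum and, at the surface of myelinating cells, halts axon growth through the GPI-anchored receptor encoded by RTN4R. Collapsin response mediators such as DPYSL3 carry guidance signals to microtubules and actin. Outside the nervous system the same genes act in epithelial adhesion, vessel growth and cell migration.

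Sequences are shown from 2 genes because the transcripts of RTN4 and of DPYSL3 did not change alike, as described further on. The RTN4 sequences are on the minus strand of GRCh38 (GENCODE transcript sequences). Capitals mark the second exon, chr2:55028164-55028220, which separates the longer forms from the abundant short form, and then the opening 150 bases of the third exon, chr2:55027336-55027485, whose 2400 bases only the longest form, Nogo-A, holds among the 4 forms compared. The lower-case letters are the neighbouring 24 bases of the spliced transcript.
RTN4 second exon: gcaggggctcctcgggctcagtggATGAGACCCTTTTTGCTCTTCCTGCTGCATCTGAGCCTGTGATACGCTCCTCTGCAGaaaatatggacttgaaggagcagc
RTN4 exon of Nogo-A, opening: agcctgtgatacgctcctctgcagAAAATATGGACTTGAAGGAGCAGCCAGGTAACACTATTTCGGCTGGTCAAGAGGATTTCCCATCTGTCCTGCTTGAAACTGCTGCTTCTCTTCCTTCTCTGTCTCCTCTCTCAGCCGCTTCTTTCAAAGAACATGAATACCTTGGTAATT

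The DPYSL3 sequence is the 250 bases before the upstream start of DPYSL3, on the minus strand (RefSeq, GRCh38.p14), at chr5:147510069-147510318. Capitals mark a match, on the opposite strand, to ACGTG, the core letters of a hypoxia response element.
DPYSL3 upstream start: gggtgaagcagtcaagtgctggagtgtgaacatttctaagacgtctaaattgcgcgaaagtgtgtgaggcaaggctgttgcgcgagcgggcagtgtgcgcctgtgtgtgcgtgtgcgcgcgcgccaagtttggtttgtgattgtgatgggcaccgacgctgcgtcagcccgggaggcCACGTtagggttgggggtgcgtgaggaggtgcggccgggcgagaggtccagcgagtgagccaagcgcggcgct
ACGTG occurred once, 73 bases before the start. On either strand it occurred in 18.7% of 27303 promoters of that length, so the match describes the letters only. TTCNNNGAA, the STAT consensus, and GGAATG, a TEAD motif, had no match in the window; 6.78% and 11.9% of all promoters held them. The 250 bases before the downstream start of DPYSL3, chr5:147453693-147453942, had no match to ACGTG, TTCNNNGAA or GGAATG. Of the 10 genes, 7 had an entry in the promoter table, and RTN4RL2, UNC5B and NTN1 did not.

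Levels are given in FPKM, tags scaled by transcript length and by the tags of the library, and can be compared between genes because they are scaled by length. On TCP the order from high to low was RTN4, DPYSL3, NTN4, NTN1, RTN4R, SLIT2, ROBO1, RTN4RL2, UNC5B and SLIT3. On polymer X it was RTN4, RTN4RL2, DPYSL3, NTN1, NTN4, RTN4R, SLIT2, ROBO1, UNC5B and SLIT3. In neither order did the libraries of neighbouring genes overlap, but each rank rests on 2 libraries. RTN4RL2 moved from rank 10229 to rank 2439 among all symbols, and DPYSL3 from rank 1089 to rank 2802.

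For all 10 genes the 2 groups of libraries did not overlap. Non-overlap was the rule in this table: it held for 90.4% of the 11964 genes tested, so nothing is read from it. Mean levels were higher on polymer X for 6 genes and lower for 4. A gene was called when limma gave an adjusted p under 0.05 on log2(FPKM + 1) and the log2 fold change was at least 1 in size. Of the 9 genes high enough to enter the fit, 2 met the rule upwards, RTN4RL2 and UNC5B, beside 10.7% of all tested genes, and 2 met it downwards, NTN4 and DPYSL3, beside 9.45%. The median log2 fold change of the 9 was 0.14, against -0.06 over all tested genes. These shares and medians describe genes that were selected on the same contrast.

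**Figure D1:**
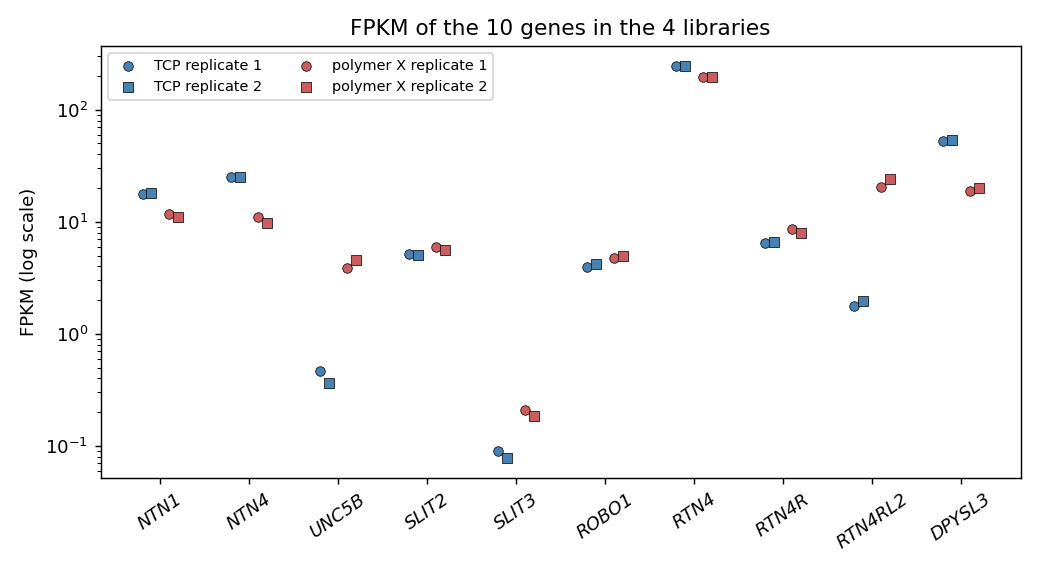
FPKM on a log scale for the 10 genes, with TCP libraries in blue and polymer X libraries in red, circles for replicate 1 and squares for replicate 2. RTN4RL2 and UNC5B stand about 1 log unit higher on polymer X, NTN4 and DPYSL3 lower, and the other genes lie closer together.

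RTN4RL2 encodes a GPI-anchored relative of the Nogo receptor that binds myelin-associated glycoprotein. Its transcript NM_178570 (hg19 chr11:57228010-57245012, plus strand) had 1.78 and 1.95 FPKM on TCP and 20.4 and 23.9 FPKM on polymer X. Both spheroid libraries lay far above both flat ones. The mean was 11.9-fold higher, and the fitted log2 fold change of 3.01 ± 0.08 (SE, n = 2 against 2) was the largest among the 10 genes. This SE, like the others here, comes from limma, which pools the spread of each gene with that of all tested genes. In RNA from whole cultures, a higher level in each cell and a larger share of cells that express the gene cannot be told apart, and this holds for every result here.

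RTN4R, the Nogo receptor itself (NM_023004, hg19 chr22:20228938-20255816, minus strand), had 6.50 and 6.65 FPKM on TCP and 8.61 and 7.96 FPKM on polymer X. Its mean was 1.26-fold higher in spheroids, and the log2 fold change of 0.29 stayed under the minimum. RTN4RL1, the remaining gene of the family, was close to absent, with 0.029 and 0 FPKM on TCP and 0.379 and 0.176 FPKM on polymer X. Its 4 and 81 tags gave a ratio of 20.9 with an exact 95% counting interval of 7.86 to 78.6. Summed over the 3 receptors the level was 8.45 ± 0.21 FPKM on TCP and 30.7 ± 1.86 FPKM on polymer X (SD, n = 2 each), 3.63-fold higher. RTN4RL2 made up 21.4% and 22.7% of that sum on TCP and 69.4% and 74.6% on polymer X. RTN4R, the main receptor transcript of flat cells, thus held the smaller share in spheroids.

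**Figure D2:**
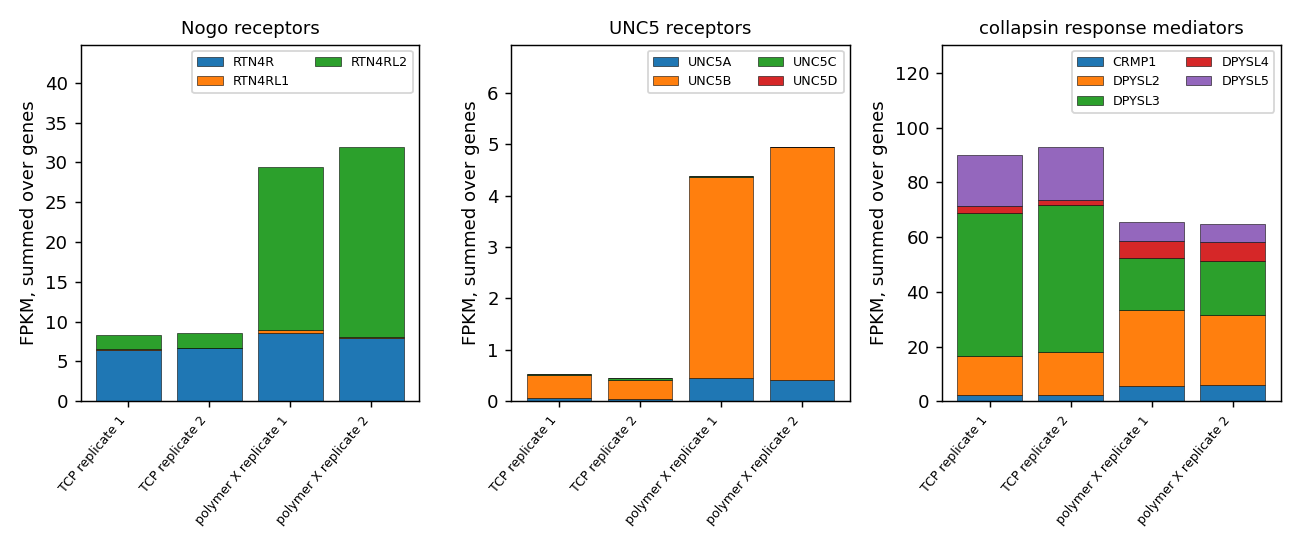
Summed FPKM of the Nogo receptor, UNC5 receptor and collapsin response mediator genes in each library, with each gene's part stacked in its own colour. RTN4RL2 takes the larger part of the Nogo receptor sum on polymer X, UNC5B most of the UNC5 sum in every library, and DPYSL2 passes DPYSL3 on polymer X.

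RTN4 encodes the reticulon family ligand Nogo. It was the most abundant of the 10, at rank 149 on TCP and 152 on polymer X. Its leading transcript NM_153828 (hg19 chr2:55199327-55277734, minus strand), the Nogo-B form, had 245 and 248 FPKM on TCP and 198 and 197 FPKM on polymer X. The log2 fold change of -0.32 was under the minimum and shrank to -0.01 with quantile normalization. The 11 RTN4 transcripts of the table fell within a narrow range, from 1.18-fold to 1.25-fold lower on polymer X, because they share most of their exons.

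The tags of an exon that 1 transcript holds and another lacks can be read as the difference of both transcripts. For the third exon of RTN4, whose opening is printed above, that difference was 201 and 186 tags on TCP and 89 and 91 tags on polymer X. These were 0.890% (Wilson 95% interval 0.776 to 1.02) and 0.697% (0.604 to 0.804) of the tags of the longest transcript on TCP, and 0.471% (0.383 to 0.579) and 0.476% (0.388 to 0.584) on polymer X. These intervals, like the others on tags here, cover counting error only. Replicates spread more than counting allows, with a mean chi-square over genes, on 1 degree of freedom, of 5.43 on TCP and 6.16 on polymer X. As a level the exon stood at 2.18 and 1.73 FPKM on TCP and at 0.93 FPKM in both polymer X libraries. Exon level was 2.10-fold lower on polymer X, against 1.25-fold for NM_153828. The Nogo-A exon stood at 0.79% of the level of NM_153828 on TCP and at 0.47% on polymer X, so nearly all RTN4 RNA lacked it in both groups.

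The second exon, 57 bases, gave 7 and 7 tags on TCP and 5 and 12 on polymer X, too few to show a difference. The start of Nogo-C, the first exon of NM_007008, gave at least 69 and 72 tags on TCP and 83 and 98 on polymer X. At that lower bound its level was 7.39 and 6.60 FPKM on TCP and 8.53 and 9.91 FPKM on polymer X. As group means the bound is 2.84% and 4.68% of NM_153828. The tags of NM_153828 were split between its first exon, shared with Nogo-A, and its last 6 exons. The former is a lower bound and the latter an upper bound. The first exon went from 115% to 107% of the level of the transcript, and the last 6 exons from 91.4% to 96.4%. A fall of either share raises the other, so nothing is read from their opposite directions. As levels taken at these bounds, both fell from TCP to polymer X, from 285 to 210 FPKM and from 226 to 190 FPKM as group means. The third exon was likewise lower on polymer X. For the start of Nogo-C only the lower bound was higher there, which does not give the direction of its level.

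**Figure D3:**
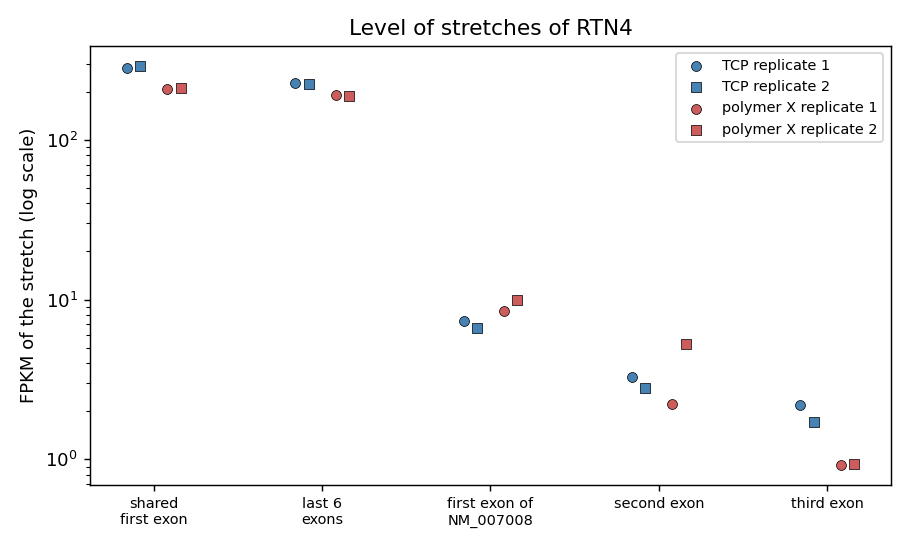
FPKM on a log scale of 5 stretches of RTN4 in each library, with TCP in blue and polymer X in red. The third exon lies about 2 log units below the shared exons and is lower on polymer X. The first exon of NM_007008, drawn at its lower bound, is higher there.

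NTN1 encodes netrin-1. NM_004822 (hg19 chr17:8924859-9147317, plus strand) had 17.5 and 18.2 FPKM on TCP and 11.6 and 11.1 FPKM on polymer X. Its mean was 1.57-fold lower in spheroids, and the log2 fold change of -0.61 did not meet the rule. NTN4 encodes netrin-4, a laminin-related netrin of basement membranes. NM_021229 (hg19 chr12:96051583-96184536, minus strand) had 25.3 and 25.03 FPKM on TCP and 10.97 and 9.67 FPKM on polymer X. Its mean was 2.44-fold lower in spheroids (log2 fold change -1.21), and its order with NTN1 turned round. NTN3 and NTN5 stayed at 0.31 FPKM or less in every library. The 4 secreted netrins together had 43.1 ± 0.30 FPKM on TCP and 22.2 ± 1.20 FPKM on polymer X (SD, n = 2 each), 1.95-fold less.

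Among the NTN4 transcripts, NM_021229 is 409 bases longer than NM_001329701. It had 867 and 911 more tags on TCP and 253 and 255 more on polymer X. That net difference was 24.8% and 22.5% of the tags of NM_021229 on TCP and 16.0% and 18.0% on polymer X. As a net level it was 3.40-fold lower on polymer X, against 2.24-fold for the shorter transcript. Spread over 409 bases, the net level was 242% of that of the shorter transcript on TCP and 160% on polymer X, as group means. It is therefore not read as the level of a single stretch.

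UNC5B encodes a netrin receptor of the UNC5 group that is best known from vessels. NM_001244889 (hg19 chr10:72972292-73062635, plus strand) had 0.465 and 0.361 FPKM on TCP, from 122 and 111 tags, and 3.91 and 4.53 FPKM on polymer X, from 1069 and 1259 tags. The mean was 10.2-fold higher on polymer X. The fitted log2 fold change was 1.88 ± 0.09 (SE) with a pseudocount of 1 and 3.08 with a pseudocount of 0.1, since the added constant weighs on a gene this low. UNC5A had 0.056 and 0.048 FPKM on TCP and 0.457 and 0.410 FPKM on polymer X, UNC5C did not pass 0.041 FPKM, and UNC5D was listed at 0 throughout. UNC5B made up between 80.2% and 91.4% of the UNC5 sum in each library, and that sum was 9.44-fold higher on polymer X. The spheroid libraries thus held less secreted netrin RNA and more UNC5 RNA than the flat ones.

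DCC and neogenin behaved differently from UNC5B. NEO1, neogenin, was the only one of DCC and neogenin with tags, at 10.8 and 11.2 FPKM on TCP and 11.7 and 10.6 FPKM on polymer X. Its groups overlapped and its log2 fold change was 0.02 (limma, adjusted p = 0.797), with a sign that turned when TCP replicate 1 or polymer X replicate 1 was left out. DCC was listed at 0 in all 4 libraries.

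SLIT2 encodes the main slit of these cells. NM_001289136 (hg19 chr4:20253528-20622184, plus strand) had 5.21 and 5.08 FPKM on TCP and 5.97 and 5.57 FPKM on polymer X. That is a log2 fold change of 0.14. SLIT3 (NM_001271946, hg19 chr5:168088738-168728133, minus strand) was too low for the fit. It had 33 and 34 tags on TCP and 81 and 73 on polymer X, or 0.089 and 0.078 against 0.209 and 0.185 FPKM. The ratio of summed tags was 2.37, with an exact 95% counting interval of 1.77 to 3.21. SLIT1 lay lower still, at 0.023 FPKM in both TCP libraries and 0.130 and 0.118 FPKM on polymer X. SLIT2 therefore carried nearly all of the slit level, which was 5.25 ± 0.10 FPKM on TCP and 6.09 ± 0.30 FPKM on polymer X.

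ROBO1 encodes the roundabout receptor through which slits act on many epithelia. NM_001145845 (hg19 chr3:78646388-79068609, minus strand) had 3.91 and 4.16 FPKM on TCP and 4.78 and 4.99 FPKM on polymer X. That is a log2 fold change of 0.23. ROBO2 was listed at 0, ROBO3 lay between 0.320 and 0.563 FPKM, and ROBO4, an endothelial gene, did not pass 0.111 FPKM. The 657-base net difference between NM_133631, with the downstream start, and NM_002941, with the upstream start, held 139 and 156 tags on TCP and 106 and 70 on polymer X. It was 12.5% and 11.3% of the tags of NM_133631 on TCP and 7.48% and 4.63% on polymer X. As a net difference of transcripts with separate starts it depends on the tags of both first exons. The gene's transcripts were 1.21-fold to 1.29-fold higher on polymer X. A 165-base stretch that NM_133631 holds and NM_001145845 lacks gave 15 and 20 tags on TCP and 20 and 29 on polymer X.

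DPYSL3 encodes collapsin response mediator protein 4, which binds actin and microtubules. NM_001387 (hg19 chr5:146770371-146833260, minus strand) had 52.2 and 53.7 FPKM on TCP and 18.9 and 20.0 FPKM on polymer X. The level was 2.72-fold lower, and the log2 fold change of -1.40 was the lowest of the 10. Its longer transcript NM_001197294 begins at the upstream start whose 250 bases are shown above. The first exon of that transcript, less the first exon of NM_001387, held 985 and 1189 tags on TCP and 202 and 179 on polymer X. This was 8.89% and 8.92% of the tags of NM_001197294 on TCP, with intervals from 8.38% to 9.44%, and 5.05% and 4.18% on polymer X, with intervals from 3.62% to 5.77%. The net level was 5.52-fold lower on polymer X, against 2.72-fold for NM_001387. As a difference of first exons it is a lower bound for the upstream start and depends on how much RNA began downstream.

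The net first-exon difference of DPYSL3 and the lower bound for the shared first exon of RTN4 held a smaller share of tags on polymer X. The lower bound for the first exon of NM_007008 held a larger one. The net difference of NTN4 and the 657-base net difference of ROBO1, which were not placed along the transcript, also held a smaller share. The 165-base stretch of ROBO1 did not. It held 1.35% and 1.45% of the tags of NM_133631 on TCP and 1.41% and 1.92% on polymer X. A shift of coverage along transcripts would move such shares too. Over all tested genes the median log2 fold change was -0.14 for transcripts under 2000 bases, -0.03 for 2000 to 5000 bases and -0.03 for longer ones. The part of coverage in these shares was not tested.

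The other genes of the pathways were taken from lists drawn up from general knowledge, members left out. Earlier results of these data were known by then, so the counts and p-values of list genes are not independent evidence. Of the 83 genes on 5 lists, 59 were tested, 6 were called higher and 5 lower, beside 10.7% and 9.45% of all tested genes. An adjusted p under 0.05 alone was met by 19 upwards and 28 downwards, beside 37.4% and 43.6% of all tested genes. The median log2 fold change over the 59 was -0.04, against -0.06 over all.

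Of 15 netrin pathway genes 7 were tested, with 2 called higher and 0 lower by limma. At an adjusted p under 0.05 alone, and equally at an unadjusted one, 4 were higher and 1 lower. The adjusted shares over all tested genes were 37.4% and 43.6%. Their median log2 fold change was 0.24. DRAXIN, a secreted netrin antagonist, had 0.030 and 0.025 FPKM on TCP and 2.92 and 2.55 FPKM on polymer X. Its 4 and 389 tags gave a ratio of 100.4 with an exact 95% counting interval of 38.9 to 370.3 (limma log2 fold change 1.86, adjusted p = 7.84e-08). NTNG2, a membrane-anchored netrin-G, had 0.033 and 0.140 FPKM on TCP and 1.13 and 1.22 FPKM on polymer X. Its log2 fold change of 1.00 (limma adjusted p = 6.01e-06) sat on the minimum, and the call was lost without TCP replicate 1, where it was 0.93, without polymer X replicate 2, where it was 0.98, and with quantile normalization, where it was 0.46.

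Of 14 slit pathway genes 8 were tested, with 1 called higher and 1 lower and a median of -0.13. FLRT3, a leucine-rich repeat protein that can bind ROBO1, rose from 0.129 and 0.140 to 2.10 and 1.49 FPKM (limma log2 fold change 1.29, adjusted p = 3.98e-06). With quantile normalization its value was 0.79 and the call was lost. SRGAP1, a GTPase-activating protein that works below ROBO receptors, fell from 8.32 and 9.29 to 3.51 and 3.56 FPKM (limma log2 fold change -1.11, adjusted p = 7.47e-07).

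Of 17 Nogo pathway genes 9 were tested and 0 were called by limma in either direction, with a median of 0.17. Leaving out the fold change minimum, 4 were higher and 3 lower at an adjusted p under 0.05, beside 37.4% and 43.6% of all tested genes. At an unadjusted one the counts were 5 and 3. Of the co-receptors of RTN4R, 2 were scarce and 1 was not. NGFR had between 0.059 and 0.259 FPKM, LINGO1 between 0.138 and 0.236 FPKM, and TNFRSF19, also called TROY, had 5.28 and 4.79 FPKM on TCP and 5.89 and 5.67 FPKM on polymer X (limma log2 fold change 0.17, adjusted p = 0.0567). The alternative ligands MAG and OMG were at 0 in every library and between 0.119 and 0.262 FPKM. Of the other reticulons, RTN2 had 7.67 and 8.68 FPKM on TCP and 16.6 and 14.8 FPKM on polymer X (limma log2 fold change 0.86, adjusted p = 5.78e-06), under the fold change minimum. RTN1 had a log2 fold change of 0.21 (limma adjusted p = 0.021). RTN3 had one of -0.16 (limma adjusted p = 0.0266), which turned to 0.19 with quantile normalization.

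Of 11 genes of the collapsin response list 10 were tested, with 2 called higher, 2 lower and a median of -0.28. The family of DPYSL3 was split. DPYSL5 fell from 18.7 and 19.4 to 6.69 and 6.75 FPKM (limma log2 fold change -1.38, adjusted p = 4.82e-08), close to the change of DPYSL3 in size. CRMP1 rose from 2.20 and 2.17 to 5.66 and 6.05 FPKM (limma log2 fold change 1.11, adjusted p = 6.95e-07), and DPYSL4 from 2.56 and 2.02 to 6.36 and 6.68 FPKM (limma log2 fold change 1.20, adjusted p = 1.74e-06). The call of CRMP1 was lost with quantile normalization, at 0.97. DPYSL2, at 14.3 and 15.9 FPKM on TCP and 27.9 and 25.4 FPKM on polymer X, had a log2 fold change of 0.78 (limma adjusted p = 6.18e-06) and was not called. The sum of the 5 mediators was 91.6 ± 2.23 FPKM on TCP and 65.1 ± 0.40 FPKM on polymer X. DPYSL3 made up 58.0% and 57.7% of it on TCP and 28.8% and 30.9% on polymer X, where DPYSL2 was the larger with 42.6% and 39.1%. KIF5B, a kinesin that carries DPYSL2 along microtubules, fell from 50.1 and 52.2 to 25.2 and 21.7 FPKM (limma log2 fold change -1.10, adjusted p = 7.37e-07). Its call was lost without polymer X replicate 2, at -0.99, and with quantile normalization, at -0.83.

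Of 26 shared effectors of the cytoskeleton and of netrin-linked death 25 were tested, with 1 called higher, 2 lower and a median of -0.24. EVL, an Ena/VASP actin regulator, rose from 10.9 and 10.4 to 25.1 and 24.5 FPKM (limma log2 fold change 1.15, adjusted p = 1.35e-07). DAPK1, a death-associated kinase that can act below unbound UNC5B, fell from 32.2 and 34.0 to 9.76 and 9.50 FPKM (limma log2 fold change -1.68, adjusted p = 1.25e-08). MAP1B, a microtubule protein used in netrin signaling, fell from 62.9 and 66.1 to 25.7 and 26.0 FPKM (limma log2 fold change -1.28, adjusted p = 4.42e-08). At an adjusted p under 0.05 alone, 5 effectors were higher and 14 lower, beside 37.4% and 43.6% of all tested genes.

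**Figure D4:**
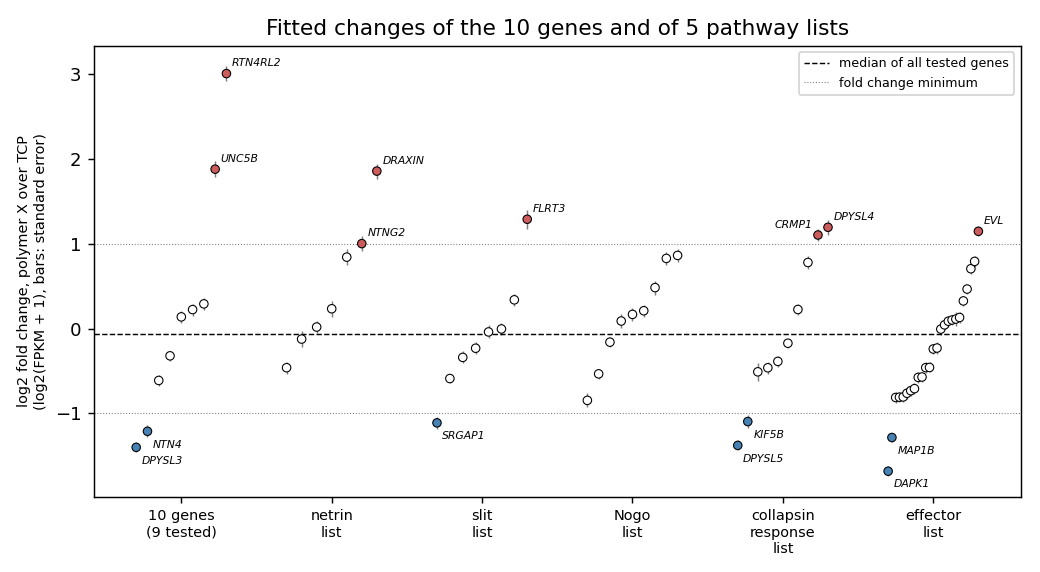
Fitted log2 fold change of polymer X over TCP, on log2(FPKM + 1), with standard errors, for the 9 tested genes and the tested genes of 5 lists. Filled points passed the adjusted p and the dotted fold change minimum, in red upwards and blue downwards, and the dashed line is the median of all tested genes at -0.06.

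In all, 1285 genes were called higher and 1131 lower. The tags each library was scaled to, read from the steps between low values, ranged from 38404000 to 44916000. Replicates correlated at 0.998 on TCP and 0.997 on polymer X across genes. KRT8, KRT18, PAX8 and ERBB2, epithelial and ovarian markers, were well above 1 FPKM in every library, while EPCAM, KRT19 and WT1 were low; 6 of 9 such markers reached 1 FPKM in all libraries, with sums of 642 to 656 FPKM on TCP and 1224 to 1273 FPKM on polymer X. ERBB2 had 198 and 206 FPKM on TCP and 913 and 860 FPKM on polymer X. PAX8 had 48.8 and 50.5 against 102 and 108 FPKM, and MUC1 had 1.71 and 1.79 against 15.3 and 16.7 FPKM. EPCAM and KRT19 were also higher on polymer X. KRT8 had 262 and 269 against 146 and 143 FPKM, and KRT18, KRT7 and WT1 were also lower on polymer X. Among 8 neuronal markers TUBB3 and SYT1 passed 1 FPKM in all libraries, and STMN2 was at 0, with sums of 74.8 to 75.2 FPKM on TCP and 79.4 to 81.0 FPKM on polymer X. All 6 endothelial and all 5 leukocyte markers were under 1 FPKM in every library. Their summed levels were 0.616 to 0.635 FPKM on TCP and 0.628 to 0.987 FPKM on polymer X for endothelium, and 0.111 to 0.160 and 1.01 to 1.06 FPKM for leukocytes. Within the endothelial sum PECAM1 had 0 FPKM in both TCP libraries and 0.573 and 0.458 FPKM on polymer X. KDR went the other way, from 0.476 and 0.438 to 0.215 and 0.110 FPKM. The leukocyte marker PTPRC had 0.005 and 0 FPKM on TCP and 0.468 and 0.530 FPKM on polymer X, while CD3E was at 0 throughout. Glial markers summed to 1.25 to 1.35 FPKM on TCP and 1.66 to 1.80 FPKM on polymer X. Of 5 fibroblast markers only COL1A1 reached 1 FPKM in all libraries, and their sum was 8.58 to 8.83 FPKM on TCP and 10.3 to 11.5 FPKM on polymer X. The fibroblast marker DCN was at 0.025 and 0 FPKM on TCP and 7.26 and 6.20 FPKM on polymer X, higher there like RTN4RL2 and UNC5B. COL1A1 went the other way, with 8.21 and 8.48 FPKM on TCP and 3.81 and 3.77 FPKM on polymer X, and THY1 was also lower there, at 0.184 FPKM or less in every library. The part of cells with fibroblast, endothelial or leukocyte markers in the results was not tested.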

How the data were processed

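RNA-seq of 4 SKOV3 libraries was analysed, 2 on TCP and 2 on polymer X. The authors deposited FPKM values per RefSeq transcript, made with HOMER from exon tags of both strands on hg19. The submitters' processing notes also name STAR 2.4.0 and DESeq, with no role given. A directional kit was used, but strand was ignored in counting, so antisense reads cannot be separated. In the table no other gene's span overlaps the 10 genes, but a gene the table does not list would not be seen. Low values were whole numbers of tags (within 0.1), which gave the tags behind each level. Should tags include both mates of read pairs, counting intervals are too narrow.

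1 transcript, that of highest mean, stood for each symbol. Genes reaching an FPKM of 1 in 2 or more libraries were fitted on log2(FPKM + 1) with limma 3.58.1 (R 4.3.3, mean-variance trend, Benjamini-Hochberg adjustment). Fold changes on this scale understate the change of low genes. On simulated data for 11158 genes the fit found 175 of 200 changed genes with 0 false calls. The spread and the size of change in that simulation were set in advance, not taken from these replicates. Its counts therefore do not give the error rate of the calls here. An exact two-sided permutation test of 2 against 2 cannot go below p = 0.333, so none was used. Nothing in the labels says that replicates were separate cultures, so p-values measure the spread between these libraries. Same-numbered libraries did not deviate together clearly (correlation 0.0927).

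The 10 genes and the lists were chosen with earlier results of these data known. Named besides the 10 were every called list gene and a set of close relatives, namely a fixed set of further receptors, ligands, co-receptors, reticulons and collapsin response mediators, not every list gene; marker genes and DCN were named after their values were seen. For a transcript of 2000 bases, 3 tags are 0.0334 to 0.0391 FPKM; ratios over so few tags are given with an exact counting interval. Alternatives changed the pseudocount, filter, scaling, transcript choice, block and libraries. Promoters and exon sequences came from GRCh38 tables, and no coordinate was converted from hg19. Python 3.11.15 and scipy 1.17.1 gave the Wilson and exact intervals at 95%.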

Additional observations from a re-analysis of the deposited data

How the results depend on the processing

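RTN4RL2 and UNC5B stayed past the rule upwards, and NTN4 and DPYSL3 downwards, wherever they were fitted. UNC5B ranged from 1.51 with quantile normalization to 3.08 with a pseudocount of 0.1, and a mean FPKM of at least 5 left it out, so that 1 of the 10 genes was then called higher. The replicate block gave 1285 genes called higher and 1131 lower, as without it, and changed no call; with 2 pairs the numbers are not shown to pair the libraries. A mean of at least 5 also gave 702 genes called higher and 0 higher in the netrin, slit and collapsin response lists, because fewer genes were tested. Without the minimum on fold change, calls came to 4477 upwards and 5212 downwards, 4 and 4 of the 10 genes, 4 and 1 of the netrin list, 2 and 4 of the slit list, 4 and 3 of the Nogo list, 4 and 6 of the collapsin response list and 5 and 14 of the effectors. Quantile normalization left 1 netrin and 0 slit genes higher, 1 Nogo gene lower, and 1 collapsin response gene higher and 1 lower. The pseudocount of 0.1 called 1 Nogo list gene higher and 1 lower, and summing transcripts called 1 Nogo list gene and 2 effectors higher. The causes of these shifts were not tested. Of all calls, 53.2% were upwards, against 42.2% with a mean FPKM of at least 5. Leaving out 1 library left a lone sample, assumed to vary like the others, and gave 1 to 2 netrin genes higher and 1 to 2 collapsin response genes lower. With 1 library left out, NEO1 ranged from -0.040 without polymer X replicate 1 to 0.079 without polymer X replicate 2, and quantile normalization gave 0.10. RTN3 turned to 0.19 with quantile normalization. Unrounded tags moved each of 18 mean shares of a stretch by less than the spread between replicates.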
